A study of Mus musculus with 42 samples.

Results

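The genes described here are Penk, Pdyn and Pnoc, which encode the precursor proteins of the opioid family of neuropeptides. Members were the probe sets (groups of short DNA probes that read 1 transcript) whose annotation gives a member as the single gene symbol, and the brightest probe set stood for each gene. Each member had exactly 1 such probe set, so the members are 3 of the 12393 genes measured. Proenkephalin (Penk) is cut into enkephalins, which act mainly on the delta and mu opioid receptors. Prodynorphin (Pdyn) gives dynorphins, ligands of the kappa receptor, and prepronociceptin (Pnoc) gives nociceptin, the ligand of the related receptor encoded by Oprl1. In the forebrain these peptides are released by neurons and mostly dampen the activity of neurons that carry the receptors, all of which couple to inhibitory G proteins.

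Transcripts were read on 42 Affymetrix mouse arrays of a single colour, with 14 groups of adult forebrain cells and 3 arrays per group. In 12 groups the RNA came from 27 to 120 fluorescent neurons per array, picked by hand from dissociated slices, and the other groups hold unsorted dissociated cells. Replicates came from different mice, per the series design, and a sample may pool several mice. Array medians lay between 285.83 and 330.39 intensity units. Depth does not apply to arrays, and their number limits the precision.

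The mouse lines mark cells by a fluorescent protein, so each group is the set of cells that a transgene or a tracer labels and not a whole cell class. GIN is a GFP line that its label ties to Gad1, crossed with C57BL/6j, and its labelled cells in cingulate cortex and hippocampus are described as somatostatin-positive interneurons. G42 is a GFP line in which cells of cingulate cortex are described as parvalbumin-positive interneurons and cells of the lateral geniculate nucleus (LGN) as interneurons. G30 is a GFP line whose cells in cingulate and somatosensory cortex are called interneurons, and whose cells in amygdala are called only GFP-labelled neurons. The labels do not state which promoter drives GFP in G30. YFPH is a YFP line crossed with C57BL/6j, with layer 5 pyramidal neurons in cingulate and somatosensory cortex, pyramidal neurons in hippocampus, and neurons of unstated class in amygdala. CT6 are layer 6 pyramidal neurons of cingulate cortex in C57BL/6j mice, filled with beads placed in the medial dorsal thalamus. The unsorted groups are cingulate cortex of GIN and of G42 mice, at least 1000 cells each. Sorted mice were labelled male, and the ages given run from P57 to P106 (days after birth); 7 arrays, 6 of them unsorted, carry no age.

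Marker genes were checked before the members were read. The summed intensity of Gad1, Gad2 and Slc32a1, genes of GABA synthesis and vesicle loading, lay between 11862 and 15274 in the 6 interneuron groups and between 371 and 758 in the 4 pyramidal groups. In amygdala the G30 arrays had a sum of Crym, Nrgn and Neurod6 of 10687 to 11560. That lay within the 9235 to 16004 of the pyramidal groups, against 306 to 3432 in the interneuron groups. Nrgn gave 7174 to 8144 of this sum. Neurod6 alone read 265, 726 and 453, against a lowest array of 527 in the pyramidal groups and a highest of 36.2 in the interneuron groups. The GABA sum of the G30 amygdala arrays was 513.5 to 2131, below the interneuron groups but partly above the pyramidal groups. Gad1 read 66.4, 594 and 379 on these arrays. Pvalb, the parvalbumin gene, was at 2023 to 5627 in the YFPH layer 5 neurons of somatosensory cortex, and at most 509 in the other YFPH groups. Slc17a7, the cortical vesicular glutamate transporter, was not analysed here. Array records mark 2 arrays as abnormally amplified (YFPH hippocampus array 1 and YFPH amygdala array 2) and 1 as coming from a new sorting method (YFPH cingulate array 3).

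**Figure D1:**
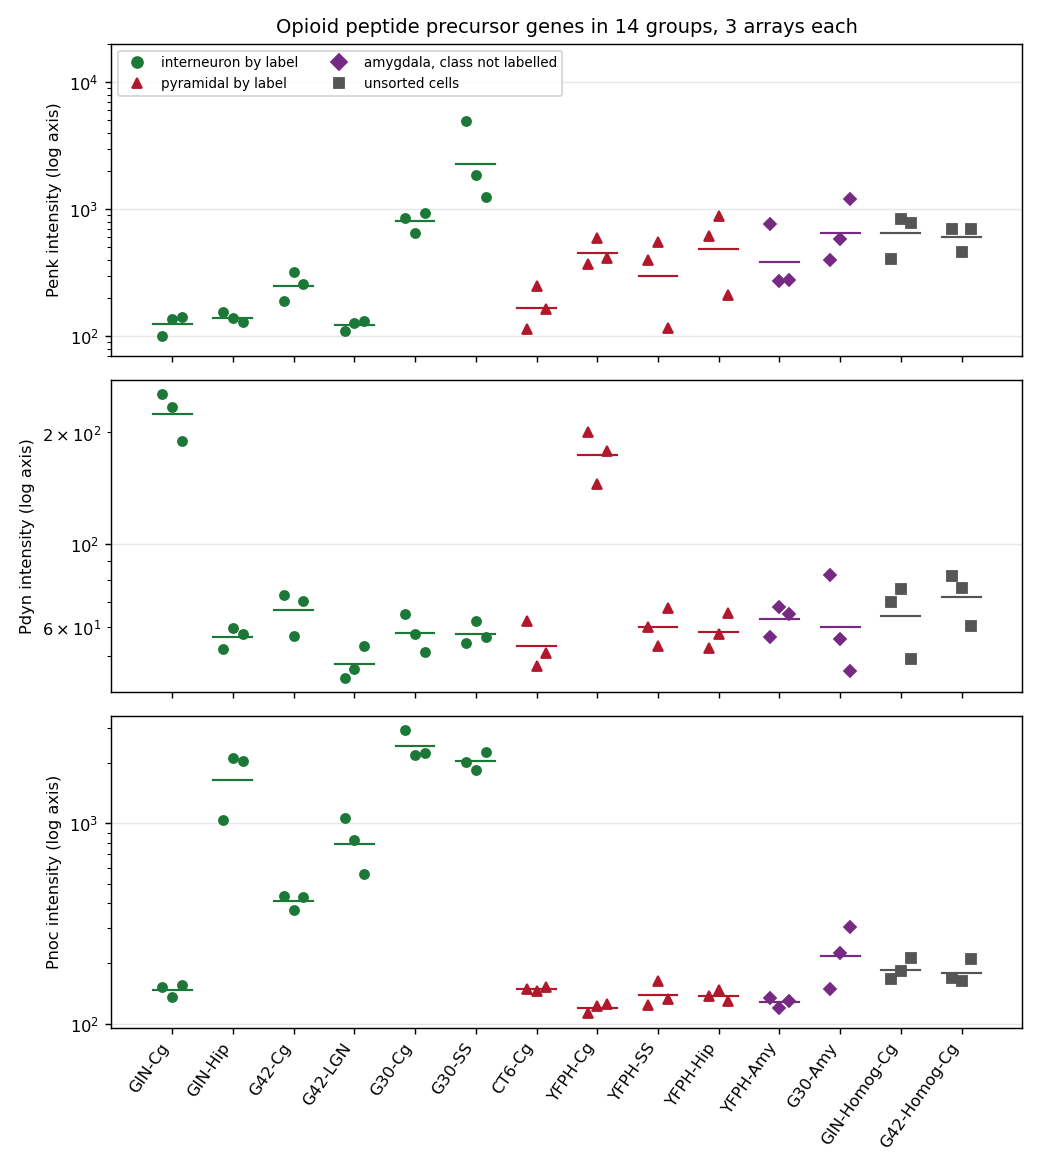
Intensity of Penk, Pdyn and Pnoc (vertical log axes) on each of the 3 arrays of the 14 groups (Cg cingulate cortex, SS somatosensory cortex, Hip hippocampus, Amy amygdala, Homog unsorted cells); bars are group means on the log2(intensity + 16) scale. Penk is highest in G30 cells of somatosensory cortex, Pdyn stands out in GIN and YFPH cells of cingulate cortex, and Pnoc is high in 5 of the 6 interneuron groups.

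The members had unlike distributions over the 12 sorted groups. Each differed among them by limma's moderated F test on log2(intensity + 16), with adjusted p = 2.86e-08 for Penk, 3.64e-22 for Pnoc and 3.99e-14 for Pdyn, by Benjamini-Hochberg. That test called 79.8% of the 9295 genes above the filter on low signals, so a call alone says little about a member. Pdyn lay under that filter (a mean below intensity 203), and every Pdyn test given here comes from a fit of all 12393 genes, in which the F test called 75.2%. Across the 12 sorted group means the Pearson correlation was -0.18 between Penk and Pdyn, 0.30 between Penk and Pnoc and -0.41 between Pdyn and Pnoc. These values are given as a description since the groups share lines and regions.

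Penk was brightest in the G30 interneurons. In somatosensory cortex the G30 arrays read 4930, 1869 and 1244, and in cingulate cortex 848, 651 and 931. The somatosensory arrays all lay above the cingulate ones, with array 1 of the first group far above the rest. Next came G30 cells of amygdala at 395, 580 and 1209, the unsorted GIN cells at 407, 839 and 786, and the unsorted G42 cells at 702, 458 and 695. These groups overlapped each other and the G30 cingulate cells.

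The 4 pyramidal groups and the YFPH amygdala cells, whose class is not labelled, held scattered Penk signals. YFPH neurons read 614, 878 and 211 in hippocampus, 368, 593 and 412 in cingulate cortex, 765, 272 and 276 in amygdala, and 395, 553 and 117 in somatosensory cortex. The layer 6 CT6 neurons were lower, at 115, 248 and 163. Within these 5 groups 1 array often stood well apart from the others of its group, as in the YFPH hippocampal and somatosensory groups, where array 3 was the low one.

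The lowest Penk signals were in the somatostatin and geniculate cells. G42 neurons of cingulate cortex were higher, at 190, 319 and 257. The mean of the CT6 pyramidal neurons lay between, and their arrays overlapped both the G42 cingulate and the GIN hippocampal cells. The GIN hippocampal cells at 154, 139 and 129, the GIN cingulate cells at 101, 137 and 141 and the G42 geniculate cells at 110, 128 and 133 formed the bottom of the order and overlapped each other. In the order of the 14 group means, 12 of 13 neighbouring pairs overlapped, so only the step from G30 somatosensory to G30 cingulate cells separated neighbours. The SD between the arrays of a group averaged 0.54 on the log2 scale, against a range of 4.03 between the highest and lowest group means.

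Within cingulate cortex, Penk was lower in GIN and in G42 interneurons than in G30 interneurons. It was lower in GIN than in G30 cells (log2 difference -2.54 ± 0.48 SE, n = 3 arrays each), which is 5.8-fold, with limma adjusted p = 0.000161; this comparison called 24.7% of tested genes. The G42 cells were 3.07-fold lower than the G30 cells (adjusted p = 0.0148; 16.4% of genes called), a call lost with the Gapdh 3' over 5' ratio as a covariate (adjusted p = 0.113), without G42 array 1 (0.0693) and without G30 array 3 (0.0613). That ratio, a measure of RNA quality and amplification, averaged 1.98 in G42 and 2.61 in G30 on the log2 scale. GIN and G42 cells differed by -0.92 (95% interval -1.88 to 0.05) and Penk was not called in that pair, in which 29.4% of tested genes were.

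Penk did not follow the division into pyramidal neurons and interneurons. The mean of 4 pyramidal groups minus that of 6 interneuron groups was 0.01 ± 0.22 on the log2 scale (adjusted p = 0.978), in a comparison that called 49.1% of tested genes. The direction differed between the hippocampal pair, with GIN interneurons, and the somatosensory pair, with G30 interneurons. Interneuron line and region cannot be told apart across these pairs. In hippocampus the YFPH pyramidal neurons were 3.22-fold above the GIN interneurons (limma adjusted p = 0.0058, with 32% of genes called). Without YFPH array 2 the adjusted p was 0.0655. These YFPH arrays were P91 to P106 and of scan year 1, and the GIN arrays P63 to P74 and of scan year 2. Line, age and scan year cannot be told apart in this pair. In somatosensory cortex the YFPH neurons were 7.22-fold below the G30 interneurons (adjusted p = 2.14e-05; 24.7% called). On the single scan day that holds an array of each, the somatosensory difference was -1.15, and with scan day as a block it was -1.63 with adjusted p = 0.212.

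Of the pyramidal cells in cingulate cortex, the layer 6 CT6 neurons had Penk signals below all 3 layer 5 YFPH arrays. The difference of -1.34 ± 0.48 missed the threshold (adjusted p = 0.0586; 12.6% of genes called). It passed with the Gapdh covariate (-1.79, adjusted p = 0.03), in a fit of these 6 arrays alone (adjusted p = 0.0109) and without CT6 array 2 (adjusted p = 0.0468).

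Regional comparisons within a line called Penk in none of 7 pairs. In G30 cells the somatosensory minus cingulate difference was 1.48 ± 0.48 and the arrays did not overlap, but adjusted p was 0.366 in a comparison that called 0.183% of tested genes. On the scan day that holds 2 arrays of each group the difference was 1.94. The G42 geniculate cells lay below the G42 cingulate cells by a log2 difference of -0.93 (adjusted p = 0.152; 26.3% called), and a fit of those arrays alone called it (adjusted p = 0.00306). Penk was not called between YFPH regions, where its arrays scattered widely: somatosensory minus cingulate was -0.56 (adjusted p = 0.946; 1.58% called) and turned to 0.59 with scan day as a block, and the hippocampal and amygdala comparisons, which called 10.1% and 6.83% of genes, gave smaller differences. GIN hippocampus against GIN cingulate cortex (18.4% of genes called) and G30 amygdala against G30 cingulate cortex (25.1%) did not call Penk either. YFPH and G30 cells of amygdala overlapped in Penk (difference -0.73, adjusted p = 0.292; 17.4% called), and with scan year as a block the difference was 0.52.

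Unsorted cingulate cells carried more Penk than the sorted interneurons of the same lines. The GIN somatostatin cells were 4.7-fold below the unsorted GIN cells (adjusted p = 0.000414; 29.4% of genes called), and on the 3 scan days that hold 1 array of each the difference was -2.87, -2.39 and -1.43. The G42 cells were 2.34-fold below the unsorted G42 cells (adjusted p = 0.0452; 32.4% called). That second call did not hold under quantile normalization (adjusted p = 0.0502), median centring (0.0613) or a fit of all genes (0.0524). It was also lost without sorted array 1, 2 or 3 (0.15, 0.0506 and 0.0837) and without unsorted array 1 or 3 (0.123 each). In bulk samples such as these, fewer cells of a type and less RNA per cell cannot be told apart. Summed Mbp, Mog and Cnp, markers of oligodendrocytes, read 8480 to 15385 in the unsorted arrays and at most 1615 in any sorted array; their part in the Penk difference was not tested. Between the unsorted groups neither Penk nor Pnoc was called, in a comparison that called 0.0108% of genes.

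Pdyn was high in a pair of the 14 groups, both from cingulate cortex. The GIN somatostatin interneurons read 254, 234 and 190, and the YFPH layer 5 pyramidal neurons 201, 145 and 179. These overlapped each other. The other 36 arrays, in 12 groups, ran from 43.8 to 82.56 with a median of 57.46, and none reached the lowest array of the high pair. Below that step every neighbouring pair of groups overlapped. The files give no detection call, so the low readings are not read as absence of the transcript.

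**Figure D2:**
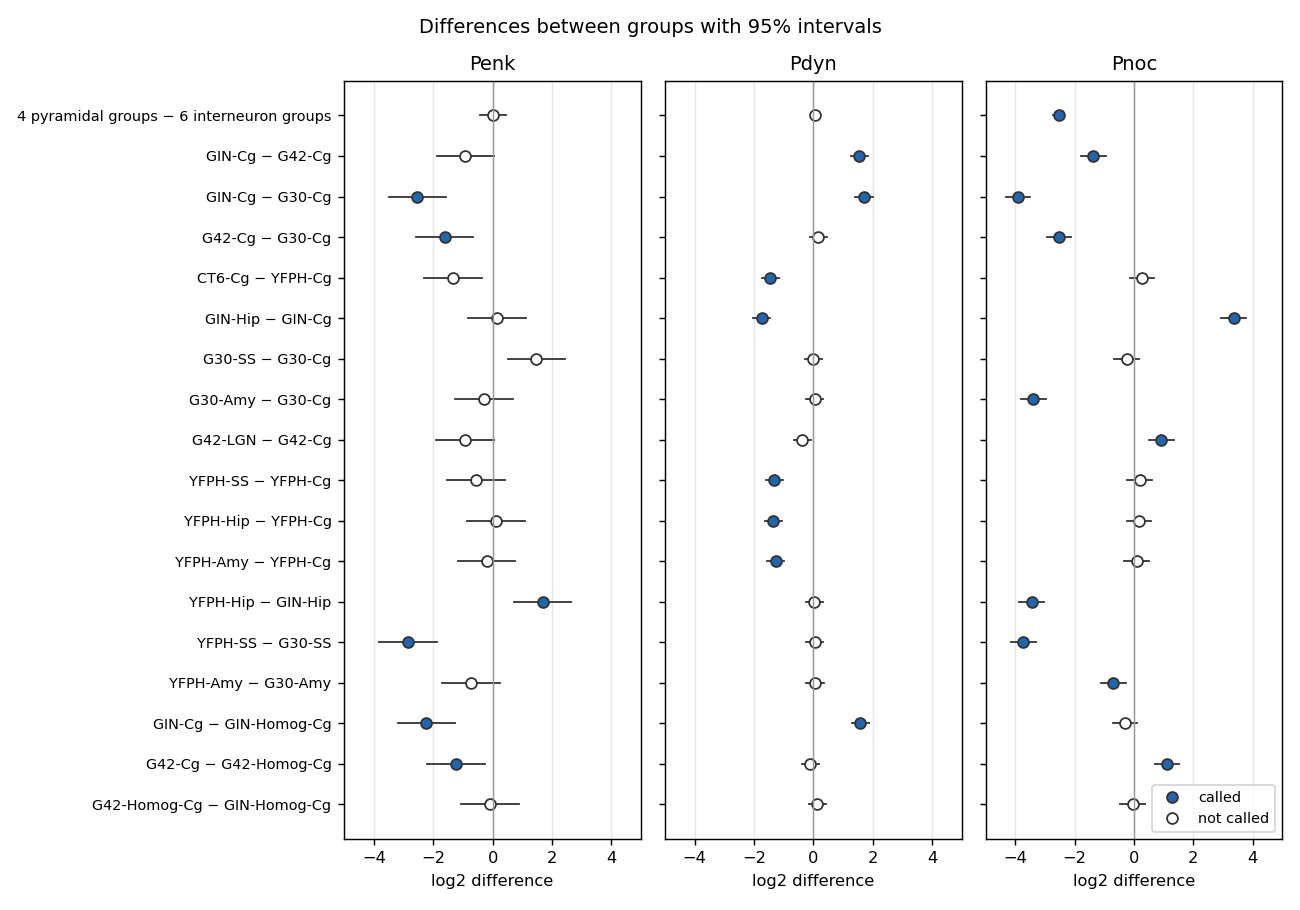
Log2 differences (horizontal axes) of Penk, Pdyn and Pnoc in 18 comparisons with their 95% intervals; filled points were called at an adjusted p below 0.05 and the names are shortened as in the plot of levels. Pnoc is called in the class comparison and Penk is not; Pdyn is called where GIN or YFPH cells of cingulate cortex are set against a low group.

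Among interneurons of cingulate cortex, Pdyn was higher in GIN than in G42 cells by 1.54 ± 0.14 (log2 difference ± SE; 2.92-fold) and than in G30 cells by 1.71 ± 0.14 (3.26-fold). Limma's adjusted p was 2.64e-10 and 2.46e-11, in comparisons that called 27.2% and 23.1% of all 12393 genes. The G42 arrays read 73.1, 56.8 and 70.6 and the G30 arrays 65, 57.4 and 51.3, so both groups lay within the low range. The log2 Gapdh 3' over 5' ratio averaged 3.21 in the GIN cells, and with it as a covariate these differences were 1.77 and 1.82 (adjusted p = 1.38e-08 and 3.86e-11). Against the unsorted cells of the same line (69.8, 75.7 and 49.3) the GIN cells were 3-fold higher (adjusted p = 7.57e-11, with 25.2% called). On the 3 shared scan days this difference was 1.56, 1.94 and 1.26.

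Among pyramidal cells of cingulate cortex, Pdyn differed between the layer 5 and layer 6 groups. CT6 neurons read 62.2, 47 and 51.2, which is 2.74-fold below the YFPH neurons (adjusted p = 2.01e-09; 10.4% of all genes called). Thus each of the cell classes in this region held both a high and a low group. Gad1 read 2799 to 3440 on the GIN arrays with high Pdyn and 33.5 to 44.9 on the YFPH arrays with high Pdyn, as the plot against Gad1 shows.

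Outside cingulate cortex, Pdyn was lower in both lines that were high there. GIN cells of hippocampus (52.1, 59.4 and 57.4) were 3.33-fold below GIN cells of cingulate cortex (adjusted p = 4.55e-11; 15% of all genes called). In YFPH cells the log2 difference from cingulate cortex was -1.32 in somatosensory cortex (adjusted p = 1.06e-07), -1.35 in hippocampus (adjusted p = 1.72e-08) and -1.26 in amygdala (adjusted p = 5.4e-08), each ± 0.14. Those comparisons called 1.23%, 8.09% and 5.35% of all genes. YFPH arrays of hippocampus and amygdala were P91 to P106, and the cingulate arrays with a given age P65 and P80. With values floored at the 25th percentile, which lies above most Pdyn readings, the somatosensory and amygdala differences were -0.21 each and not called (adjusted p = 0.143 and 0.0501). Under it the layer 6 minus layer 5 difference was also -0.21 (adjusted p = 0.0329), and GIN minus G42 and GIN minus G30 cells of cingulate cortex were 0.55 each (adjusted p = 1.01e-07 and 1.12e-07). On the single scan day that holds a YFPH array of both cortical areas the difference was -1.51. The G42 geniculate cells (43.8, 46.3 and 53.3) lay under the G42 cingulate cells by a log2 difference of -0.37 that was not called (adjusted p = 0.0574; 21.3% called).

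The regional difference in Pdyn depended on the line. The test of the difference between lines called Pdyn for somatosensory against cingulate cortex (G30 minus YFPH change, 1.31 ± 0.20, adjusted p = 0.000164), where 0.436% of all genes were called. It also called Pdyn for amygdala against cingulate cortex (1.31 ± 0.20, adjusted p = 1.32e-05; 9.13% called). With that floor both were 0.21 and not called (adjusted p = 0.914 and 0.176). In both, the G30 cells stayed low in each region while the YFPH cells were high in cingulate cortex. For hippocampus against cingulate cortex, GIN and YFPH cells both went down. The difference between their changes, -0.38 ± 0.20, was not called (adjusted p = 0.201, with 16.8% called). With the floor it was called (-0.35, adjusted p = 0.00666), but both hippocampal groups then lay at the floor. That value gives only the unlike heights of the cingulate groups above the floor, so it cannot test the change between regions. The comparisons with YFPH cells of cingulate cortex share the 3 arrays of that group.

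**Figure D3:**
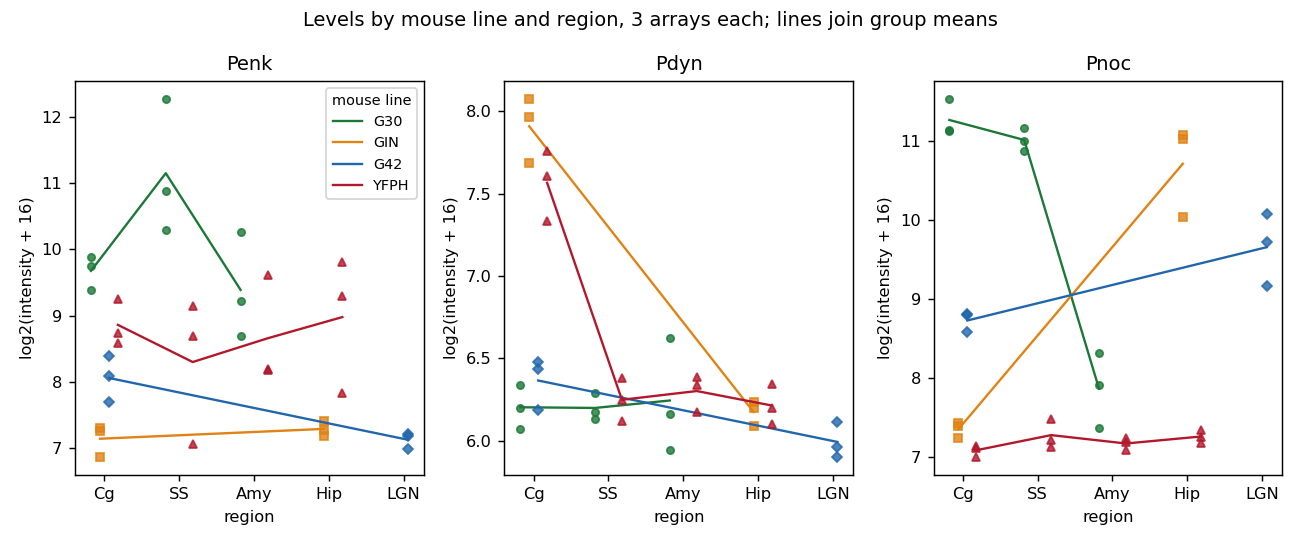
Log2(intensity + 16) of the 3 genes (vertical axes) by region (horizontal axes) for the 4 fluorescent lines, 3 arrays per group as points, with lines joining group means and no order implied among regions. Pdyn is high only in cingulate cortex in GIN and YFPH cells, while Pnoc is low in cingulate and high in hippocampal GIN cells and drops from G30 cortical to G30 amygdala cells.

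Pnoc marked interneurons, with an exception. G30 interneurons read 2932, 2202 and 2238 in cingulate cortex and 2020, 1854 and 2274 in somatosensory cortex. GIN hippocampal interneurons followed at 1036, 2126 and 2058, overlapping the G30 cells of somatosensory cortex and the G42 geniculate cells at 1065, 824 and 559, but not the G30 cells of cingulate cortex. The G42 cells of cingulate cortex read 432, 367 and 427 and overlapped no neighbour in the order.

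The remaining 9 groups had Pnoc readings between 112 and 304. G30 cells of amygdala read 149, 225 and 304, and the unsorted cells 167, 182 and 212 (GIN) and 168, 164 and 211 (G42). GIN cells of cingulate cortex, the exception among interneurons, read 152, 136 and 156. That is within the range of the 12 pyramidal arrays, 112 to 164, which the YFPH amygdala arrays (135, 120 and 130) shared. In the order of group means 10 of 13 neighbouring pairs overlapped.

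The mean of the 4 pyramidal groups was 5.8-fold below that of the 6 interneuron groups in Pnoc (log2 difference -2.54 ± 0.09, limma adjusted p = 3.1e-22). With each cell type as 1 replicate the same difference had adjusted p = 0.0517. The scan days that hold an array of each class set 1 YFPH array against 1 G30 array, from the interneuron groups brightest in Pnoc, and gave -4.38 and -3.67; no scan day compared the other interneuron groups with pyramidal cells. In hippocampus the YFPH neurons were 10.9-fold below the GIN interneurons (adjusted p = 8.7e-16), and in somatosensory cortex 13.2-fold below the G30 interneurons (adjusted p = 2.81e-16). The hippocampal groups also differ in age and scan year, as given for Penk. Within the pyramidal cells, Pnoc was called in none of the pairs tested, each set against YFPH cells of cingulate cortex. The layer 6 minus layer 5 difference was 0.27 ± 0.20 (adjusted p = 0.404).

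The 3 interneuron lines of cingulate cortex formed 3 separate Pnoc levels. GIN cells were 2.59-fold below G42 cells (adjusted p = 3.22e-06) and 15-fold below G30 cells (adjusted p = 6.55e-17), and G42 cells were 5.78-fold below G30 cells (adjusted p = 5.79e-12). Penk ranked these lines the same way, although its GIN and G42 cells were not told apart. Pdyn had its high reading in the line where both others were lowest.

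Somatostatin cells of the GIN line differed by region in Pnoc. Hippocampal GIN cells were 10.2-fold above cingulate GIN cells (3.35 ± 0.20, adjusted p = 3.96e-14), while Pdyn went 3.33-fold the other way and Penk was not called. Over the same regions Pnoc was not called in YFPH cells, and the difference between the lines was 3.18 ± 0.29 (adjusted p = 4.86e-10; 20.9% of tested genes called). Pvalb also differed between these GIN groups, at 2948 to 4302 in hippocampus and 479 to 783 in cingulate cortex; its part in the Pnoc difference was not tested. G42 geniculate cells were 1.9-fold above G42 cingulate cells (adjusted p = 0.000683).

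G30 cells overlapped in Pnoc between the cortical areas and were lower in amygdala. Somatosensory minus cingulate was -0.25 ± 0.20 (adjusted p = 0.999), and Pnoc was not called between these areas in YFPH cells; the difference between the lines called 0.463% of tested genes and neither Pnoc nor Penk, with Penk at 2.04 ± 0.67 (adjusted p = 0.335). Amygdala G30 cells were 10.5-fold below cingulate G30 cells (adjusted p = 2.4e-15), and the change differed from that of YFPH cells by -3.48 ± 0.29 (adjusted p = 2.92e-11; 11.7% called). Beside this, Gad1 read 66.4, 594 and 379 on the G30 amygdala arrays against 4012 to 4892 in cingulate cortex, and Vip 157 to 171 against 4437 to 6464. The array lowest in Gad1 was also lowest in Pnoc, but the array highest in Gad1 was not the highest in Pnoc or Penk. Npy, the neuropeptide Y gene, read 305, 1191 and 2723 on these arrays, in the order of Pnoc and of Penk. Sst (383, 365 and 409) and Vip did not follow that order, and neither did Cck, Slc17a6 and Thy1. The log2 Gapdh 3' over 5' ratio of these arrays rose in the same order (2.85, 3.19 and 3.71). Array 1 was of scan year 2, and arrays 2 and 3 of scan year 3. An order over 3 arrays is a description only. How far the mix of labelled cells, RNA quality or scan year sets these readings was not tested.

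In amygdala, Pnoc was 1.62-fold lower in YFPH than in G30 cells (adjusted p = 0.0162). This call rested on single arrays: adjusted p was 0.159 without G30 array 3, 0.0528 without G30 array 2 and 0.0643 without YFPH array 2. With scan year as a block the difference was 0.01 (adjusted p = 0.999). Against unsorted cells, Pnoc was 2.16-fold higher in the G42 cells (adjusted p = 4.48e-05) and in the GIN cells the difference of -0.31 ± 0.20 was not called (adjusted p = 0.281).

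**Figure D4:**
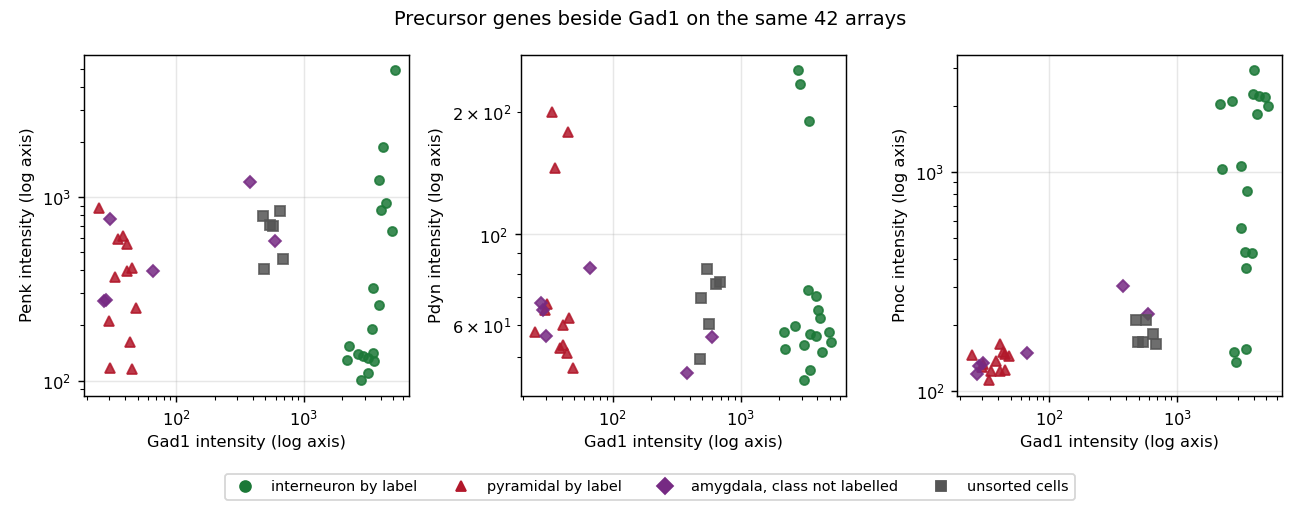
Intensity of each precursor gene (vertical log axes) against that of Gad1 (horizontal log axes) on the same 42 arrays, coloured by the labelled class. Pnoc readings above 304 occur only on arrays with Gad1 at 2176 or more, where the 3 arrays of GIN cells of cingulate cortex stay at 156 or less; high Pdyn readings occur at both ends of the Gad1 range.

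No member had a sorted group that was called above each of the other 11, a call that 1.56% of tested genes and 1.71% of all genes had. Penk came closest, with a gap of 1.48 between G30 cells of somatosensory cortex and those of cingulate cortex (adjusted p = 0.594). Its G30 somatosensory arrays all read above every other array, the lowest at 1244 against 1209 on a G30 amygdala array. The gap between the highest and the next group was 0.34 for Pdyn and 0.25 for Pnoc, with an adjusted p of 1 for each.

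By the correlation of the 12 sorted group means, the genes most like Penk were Zfr (Pearson r = 0.90), Casp8ap2 (0.89), Fyn (0.87), Angel2 (0.86) and Tirap (0.84). Those most like Pdyn were Bzw1 (0.81), Rhbdl3 (0.79), Baiap2l1 (0.77), Ckap5 (0.76) and Epha2 (0.75). Pnoc was most like Nrtn, which encodes the growth factor neurturin (0.95), then Fosl2 (0.90), Chd6 (0.90), Gpr137b-ps (0.90) and Parp12 (0.89). By Spearman's rho the order differed: Zfr ranked 4th for Penk, Bzw1 21st for Pdyn and Fosl2 14th for Pnoc, and Baiap2l1 had a rho of only 0.30 with Pdyn. Sorted group means of the named genes spanned from 0.25 (Fosl2) to 1.34 (Tirap) on the log2 scale. The spans of Penk, Pdyn and Pnoc were 4.03, 1.92 and 4.17, so a high correlation does not mean a difference of like size. The correlations are descriptions over 12 points and say nothing of shared control.

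The spans of the receptors among groups were smaller than those of the precursors. Group means of the sorted cells spanned 0.51 on the log2 scale for Oprm1 (mu receptor), 0.72 for Oprk1 (kappa), 0.60 for Oprl1 (nociceptin receptor) and 1.01 for Oprd1 (delta), against 4.03, 1.92 and 4.17 for Penk, Pdyn and Pnoc. Oprd1 lay under the filter. Its highest group mean was in GIN cells of hippocampus (156, 166 and 156), and its lowest in YFPH cells of somatosensory cortex (71.9, 69.2 and 72.5). Oprk1 was highest in YFPH cells of amygdala (594, 658 and 638), above the YFPH cells of cingulate cortex (359, 360 and 414) by 0.72 ± 0.13 (adjusted p = 0.000193).

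In the class comparison 2 of the 3 tested receptors were lower in pyramidal cells, Oprk1 by a log2 difference of -0.30 and Oprm1 by -0.21, with Oprl1 not called; 49.1% of all tested genes were called there. The same pair were lower in YFPH than in GIN cells of hippocampus (Oprk1 -0.37, Oprm1 -0.30). Oprm1 was higher in GIN and in G42 cells than in the unsorted cells of the same lines, by 0.37 and 0.38. Oprl1 was called once, higher in GIN than in G30 cells of cingulate cortex by 0.54 (adjusted p = 0.0358), where its ligand's precursor was 15-fold lower. The Oprl1 arrays overlapped, at 290, 540 and 462 in GIN cells and 301, 265 and 281 in G30 cells. Pomc, the precursor of beta-endorphin, was higher in GIN cells than in G30 and G42 cells of cingulate cortex by 0.38 and 0.24.

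Genes that process peptide precursors were called in both directions. Of 6 tested, 5 were called in the class comparison, with 2 higher and 3 lower in pyramidal cells; the median difference was -0.19 against -0.02 over all tested genes, of which 49.1% were called. Pcsk1n, an inhibitor of the convertase PC1, was lower in pyramidal cells (-0.80), as were Ctsl (-0.57), a protease that can cut proenkephalin, and Scg5 (-0.35), a chaperone of the convertase PC2. Cpd, a carboxypeptidase, was higher (0.73). All 6 were called between YFPH and GIN cells of hippocampus, 2 higher and 4 lower, led by Pcsk1n (-1.70) and Cpd (0.92), where 32% of tested genes were called. In cingulate cortex 4 of 6 were called between GIN and G42 cells, against 29.4% of tested genes: Pcsk1, the convertase itself, was higher in GIN cells (1.21), with Scg5 (0.51) and Cpe (0.29), and Ctsl was lower (-0.91).

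Peptidases that break peptides down were counted in the same way. In the class comparison, which called 49.1% of tested genes, 2 of 6 were lower in pyramidal cells, Ece2 (-0.38) and Ece1 (-0.23), and none were higher. Between GIN and G42 cells of cingulate cortex Ace (0.58) and Ece1 (0.50) were higher in GIN cells. Of 8 tested regulators 4 were called in the class comparison, a share near the 49.1% of all tested genes. The 3 higher in pyramidal cells were Junb (1.25), Crem (0.53) and Kcnip3 (0.43), which encodes DREAM, a calcium-dependent repressor known to bind the prodynorphin gene. Fosl2 was lower (-0.14). Between sorted G42 and unsorted G42 cells 5 of 8 were lower in the sorted cells, led by Junb (-1.55) and Fos (-1.06), where 32.4% of tested genes were called.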

How the data were processed

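RNA of 36 sorted and 6 unsorted samples was amplified and hybridised, per the labels' protocols. The deposited values are linear intensity values. How the authors summarised and scaled them was not given in the labels or files used here. Scan days and marked arrays come from the array records.

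Members and gene lists were chosen with earlier results of these data known. Values became log2(intensity + 16). The brightest probe set with 1 gene symbol stood for each of 12393 genes, and genes with a mean under the 25th percentile were left out, leaving 9295. Group means were fitted to all 42 arrays with limma 3.58.1 in R 4.3.3 (28 residual degrees of freedom, variances following the mean). Benjamini-Hochberg adjustment was done per comparison (21 in all), and genes were called below 0.05. Pdyn, which the filter left out, was tested in the fit without it. Named genes were the members, the 5 genes most like each by Pearson correlation of sorted group means, the receptors, and per pathway list and comparison at most 4 called genes with the largest differences.

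Alternatives were other normalizations, filters and a floor, blocks for replicate number, scan day and scan year, a Gapdh 3' over 5' covariate, the compared arrays only, arrays left out, and each cell type as 1 replicate. The fit was tested on simulated data. Replicate numbers did not pair the samples: deviations of same-numbered arrays correlated between -0.30 and 0.29, and above 0.1 for all 3 numbers in 1 of 17 group pairs, the unsorted groups. That check cannot see pairs under unlike numbers. G30 somatosensory arrays 1 and 2 share age (P57 and P59) and scan day with G30 cingulate arrays 2 and 3. Array 1 of the YFPH groups of both cortical areas shares P65 and a scan day. YFPH hippocampal arrays 1, 2 and 3 share age (P106, P99 and P91) and scan day with YFPH amygdala arrays 2, 1 and 3. The P106 arrays are those marked as abnormally amplified. Whether such arrays came from the same mice is not given, and the main fit did not pair them.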

Additional observations from a re-analysis of the deposited data

Results flagged for a closer look

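The change between regions differed between lines for Pdyn and Pnoc, by the test of the difference itself. For Pdyn the G30 minus YFPH change was 1.31 (1.31354 before rounding) from cingulate to somatosensory cortex and 1.31 (1.30554) from cingulate cortex to amygdala, since YFPH cells were high only in cingulate cortex. For Pnoc the GIN minus YFPH change from cingulate cortex to hippocampus was 3.18, and the G30 minus YFPH change from cingulate cortex to amygdala was -3.48. Groups of 3 arrays are too small for a test of single outlying arrays.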

How the results depend on the processing

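Of 896 alternative values for 50 results, 840 kept their direction and their side of the threshold, 26 lost a call, 11 gained 1 and 19 changed sign; 19 uncalled differences smaller than their standard error were not listed, and no alternative called them. The Penk difference between sorted and unsorted G42 cells lost its call under quantile normalization (-1.18), median centring (-1.13), no filter (-1.23) and scan day as a fixed block (-1.15), and ran from -1.42 to -1.04 as single arrays were left out. A fixed block for scan day ended the Penk call between YFPH and G30 cells of somatosensory cortex (-1.63), and turned the sign of YFPH somatosensory minus cingulate (0.59). The Gapdh covariate ended the Penk call between G42 and G30 cells of cingulate cortex (-1.23), which ran from -1.78 to -1.43 without single arrays, and gave 1 between CT6 and YFPH cells (-1.79, and -1.60 to -1.09 without single arrays). The compared arrays alone called Penk between GIN and G42 cells (-0.92), CT6 and YFPH cells (-1.34) and G42 geniculate and cingulate cells (-0.93). Without single arrays, YFPH minus GIN hippocampus in Penk ran from 1.28 to 2.26, YFPH somatosensory minus cingulate from -0.99 to 0.059 and the class difference from -0.10 to 0.16; the last was -0.025 with a floor and -0.017 without the 3 marked arrays.

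For Pdyn the G42 geniculate difference was called under quantile normalization (-0.44), median centring (-0.42), scan year as a block (-0.37) and the compared arrays alone (-0.37), and ran from -0.46 to -0.32 without single arrays. A floor at the 25th percentile of all values lies above most Pdyn readings. With it YFPH somatosensory and amygdala minus cingulate cortex were -0.21 each and uncalled, and the differences between lines were 0.21 each and uncalled. That for hippocampus was called (-0.35), with both hippocampal groups at the floor, so it compares only the cingulate groups. Where both groups of a comparison lay at the floor, no value was given. For Pnoc, YFPH minus G30 amygdala lost its call with the floor (-0.52), the Gapdh covariate (-0.70), without the marked arrays (-0.65) and with the compared arrays alone (-0.69); with scan year as a block it was 0.0053, and without single arrays -0.94 to -0.47. With scan year as a block Penk in that pair was 0.52. The Pnoc class difference of -2.54 was uncalled with each cell type as 1 replicate.

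The replicate number as a block changed no call; with this replicate block the Pnoc class difference was -2.54. A filter at the 50th percentile tested no member, and no member has other probe sets, so neither gave a value. Scan year 1 holds 7 pyramidal arrays and no interneuron array, so class and scan year overlap in part. In hippocampus the YFPH and GIN arrays share no scan year and their ages do not overlap. With 3 arrays a group, Penk's scatter limits what its tests can separate; for Pdyn the signal is near the bottom of the range.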
